A study of Mus musculus with 13 samples.

Results

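The genes described here are 38 genes of fibroblasts, of the extracellular matrix that they make and of mesenchymal transition, measured in dispase-freed squamous epithelium of mouse esophagus and forestomach. They were chosen by symbol, as a fixed list, in the platform's gene annotation, and where a gene had several probe sets the one of highest mean would stand for it (each had 1). Of the 38, 37 had a probe set listed with that gene alone, out of 19934 genes on the array, and 35 passed the filter on low signal (log2 intensity above 5 on at least 3 arrays). Loxl2 shared its probe set with another gene and has no value, and Fap and Cdh2 stayed below the filter. Fap, a protease on activated fibroblasts, lay above 5 on 2 arrays, at 5.97 in esophagus control 214 and 5.33 in esophagus flox/flox 335, and was between 4.22 and 4.44 in the masses. Cdh2, which encodes N-cadherin, reached 4.97 at most.

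The 13 arrays came from mice of mixed C57Bl/6 and 129 background that all carried L2-Cre, and no age is given in the sources used here. Control mice were labelled Cre/p120 +/+ (animals 214, 216 and 217), and each gave 1 esophagus and 1 forestomach. The other genotype, Cre/p120 flox/flox, has floxed alleles of the gene of p120-catenin; it was measured in the esophagus of animals 193, 307, 313 and 335 and in forestomach masses of animals 412, 426 and 510. L2-Cre is active in squamous epithelial cells of the upper digestive tract, so fibroblasts are not the cells in which it is known to act. Deletion and mass formation cannot be told apart in the forestomach, where flox/flox mice were sampled only as masses. Sex was read from the level of Xist, taken as female where high. Xist was 11.42, 5.42 and 5.31 in forestomach controls 214, 216 and 217. In masses 412, 426 and 510 it was 10.55, 11.30 and 5.39. On the esophagus arrays it was 11.14 in control 214 and 11.21 to 11.49 in flox/flox 193, 313 and 335. Esophagus controls 216 and 217 and flox/flox 307 had 5.23 to 5.26. The sexes were thus not balanced between the groups.

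Ctnnd1, the gene of p120-catenin, was read by a probe set whose place relative to the floxed exons is not given in the sources used here. It lay at 10.21 to 10.50 in control and 9.95 to 10.13 in flox/flox esophagus (a difference of -0.29, SE 0.11, limma adjusted p = 0.637), and at 10.14 to 10.40 in control forestomach and 9.51 to 9.91 in the masses, where it fell by 0.56 (SE 0.12, adjusted p = 0.0145). In both tissues every flox/flox array was below every control array.

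Fibroblasts build the connective tissue under an epithelium. They secrete fibrillar collagens, the small proteoglycans that space the fibrils, and microfibril proteins, and in wounds and tumors they add fibronectin, tenascin, periostin and thrombospondins. Zeb, Snail and Twist factors repress epithelial cadherins during mesenchymal transition, in which vimentin replaces keratins; in resting tissue most of these genes are read mainly from stromal cells, while Snai2 and Tgfbi are also made by basal squamous cells.

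Dispase is meant to leave the stroma behind, and the arrays differed in how much stromal RNA they still held. A stroma index was taken from 28 genes outside the 38, as the mean of the average log2 level of 13 other fibroblast genes (such as Col14a1 and Clec3b) and of 15 endothelial genes (such as Pecam1 and Cdh5). Esophagus control 214 had an index of 7.69, and flox/flox animals 307 and 335 had 6.94 and 7.36. Controls 216 and 217 and flox/flox 193 and 313 had 5.60 to 5.77. High and low arrays thus occurred in both genotypes, and the group means of 6.36 ± 1.16 (SD, n = 3) and 6.41 ± 0.87 (SD, n = 4) differed by 0.05 (exact two-sided permutation test over the 7 arrays, p = 0.971). In the forestomach the index was 6.19, 5.86 and 5.81 (controls 214, 216 and 217) against 6.98, 7.19 and 6.39 (masses 412, 426 and 510). All 3 masses lay above all 3 controls, by 0.90 on average. The exact two-sided permutation p of 0.1 is the smallest that 3 against 3 arrays allow. The rise was larger in the endothelial list (1.16) than in the other fibroblast list (0.64), and the index averages these unlike rises. On bulk arrays, more stromal cells and more RNA per stromal cell cannot be told apart.

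Genes of other cell types were read on the same arrays. Of 8 smooth muscle genes 8 had a log2 change above 0 in the masses against control forestomach. Their mean level was 7.70, 10.07 and 6.47 in masses 412, 426 and 510 against 7.43, 5.99 and 5.95 in controls 214, 216 and 217. Mass 426 and control 214 thus stood apart. Of 11 macrophage genes 10 had a change above 0, with list means of 6.54 to 7.48 in the masses and 6.06 to 6.16 in the controls. In the esophagus all 11 had a change above 0 in flox/flox (none was called). There flox/flox 193, with the lowest stroma index, had a macrophage mean of 6.59. Skeletal muscle genes lay between 5.84 and 6.10 on all 6 forestomach arrays but reached 8.20, 7.87 and 9.48 in esophagus control 214 and flox/flox 307 and 335, against 5.71 to 6.00 on the other esophagus arrays. The 10 squamous keratinocyte genes averaged between 11.67 and 12.19 on every array, as the labelled tissue has it. The lowest intensity on any array, before log2, was 3.28.

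**Figure D1:**
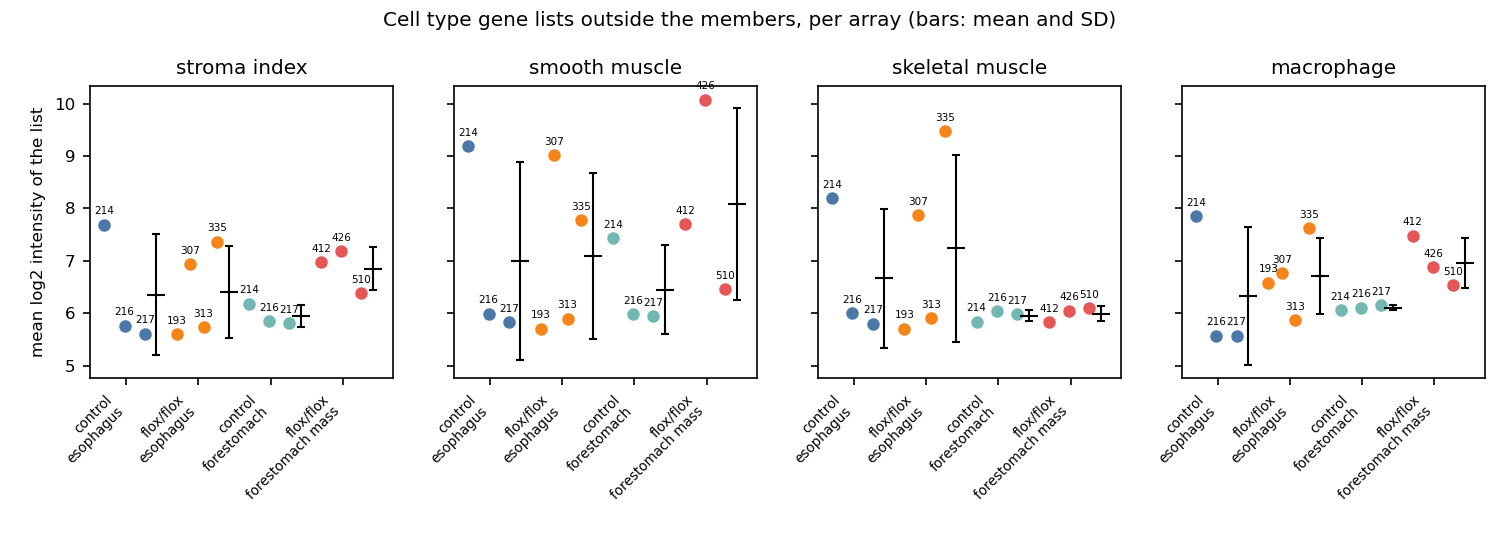
Mean log2 intensity of 4 sets of genes outside the 38 members (vertical axis) on each array, by group (horizontal axis), with animal numbers; black bars give the group mean and SD. Esophagus control 214 and flox/flox 307 and 335 stand high in stroma, smooth muscle and skeletal muscle genes, and the 3 masses lie above the 3 control forestomach arrays in the stroma index.

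In the forestomach masses, all 35 members tested had a higher mean than in control forestomach, with a median change of 1.11 on the log2 scale beside 0.0062 over the 15875 genes tested. The sign turned for 3 members under some alternatives: Snai2 with array weights (-0.0801) and without control 214 or mass 412, Dcn without mass 426 (-0.44) and Col12a1 without mass 412 (-0.12). Only 2 of the 35 passed the test, Thbs1 and Tgfbi, both higher, where 2.31% of all genes tested were called higher (limma, adjusted p under 0.05). All 3 masses lay above all 3 controls in 18 of the 35, where 10.3% of all genes tested did so. At an unadjusted p under 0.05 there were 8 members, all higher, against 8.64% of all genes. The members Lum, Postn, Dpt, Lox and Ogn were above 5 on fewer than 3 of the 6 control arrays, so they passed the filter only with flox/flox arrays counted.

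The number called depended on 3 esophagus arrays that enter the comparison only through the shared estimate of spread. Without esophagus control 214 and flox/flox 307 and 335, the arrays highest in stroma there, the changes in the masses were the same numbers but 18 members were called, all higher, where 2.42% of all genes tested were called higher. The SE of Col1a1 was 1.01 with these arrays and 0.39 without them, and its adjusted p was 0.249 and 0.0185. This fit was chosen after the values were seen. In a fit of the 6 forestomach arrays alone, 2 members were called, Thbs1 (adjusted p = 0.0487) and Col3a1 (0.0487), and Tgfbi was not (0.0547); 0.743% of all genes were called higher there.

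**Figure D2:**
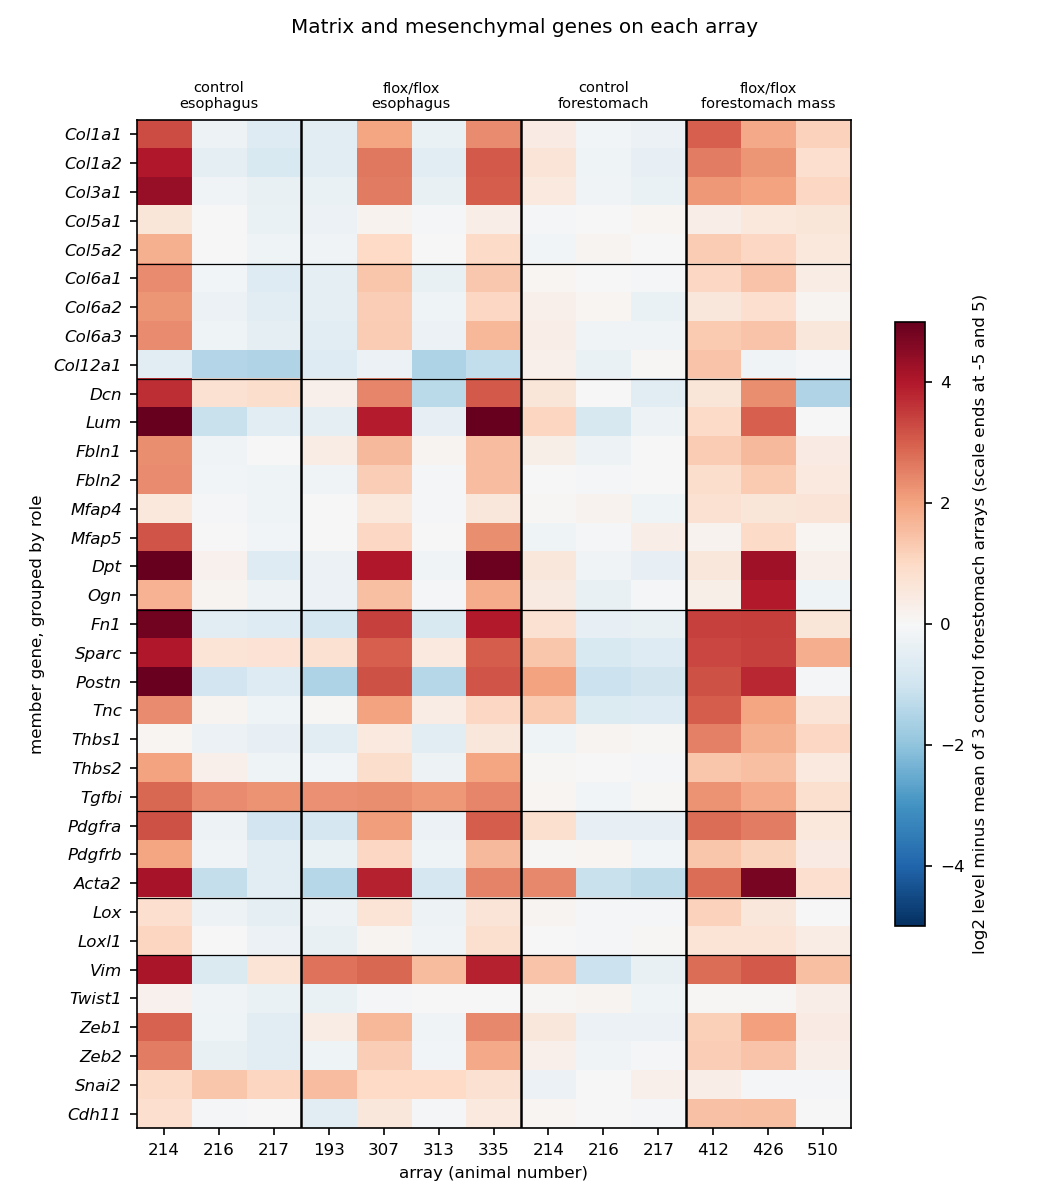
Log2 level of the 35 tested members (rows, grouped by role) on the 13 arrays (columns, by group and animal), each less the member's mean on the 3 control forestomach arrays; red is higher and blue lower, and the color scale ends at -5 and 5. Most rows are red in esophagus control 214, flox/flox 307 and 335 and in masses 412 and 426, and paler in mass 510. Tgfbi, Snai2 and Sparc lie above their control forestomach mean on all 7 esophagus arrays.

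The member with the smallest adjusted p in the masses was Tgfbi, which encodes a secreted matrix protein that binds integrins and collagen and was first found as a gene induced by TGF-beta. Its log2 level was 7.06, 6.83 and 7.01 (forestomach controls 214, 216 and 217) against 9.22, 8.88 and 7.79 (masses 412, 426 and 510). The groups did not overlap, and mass 510 was lowest among the masses. Tgfbi rose by 1.66 (SE 0.29, 3.17-fold, limma adjusted p = 0.00553). The controls averaged 6.97 ± 0.12 and the masses 8.63 ± 0.75 (SD, n = 3 each).

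The same gene separated the tissues of control mice. In the esophagus Tgfbi stood at 9.84, 9.34 and 9.20 (controls 214, 216 and 217) against 9.25, 9.29, 9.12 and 9.41 (flox/flox 193, 307, 313 and 335). These 7 values span arrays of low and high stroma index, and the low-index arrays lay between 9.12 and 9.34. Control forestomach was lower than control esophagus by 2.49 (SE 0.29, 5.63-fold, limma adjusted p = 0.000435). Mass 412 lay within the range of the esophagus arrays, and masses 426 and 510 lay below it.

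The sequence just before the start of Tgfbi is shown because this member alone changed between tissues and between masses and their controls, and that of the collagen gene Col3a1, chosen after its values were seen, because it moved with the stroma index, by 2.15 per unit of it. Both are RefSeq sequence of GRCm38.p6, plus strand, 250 bases up to the base before the annotated start, and 20 of the 38 genes had an entry in the table. Tgfbi lies at chr13:56609336-56609585 and Col3a1 at chr1:45311288-45311537, both promoter windows. Capitals mark matches, on either strand, to TATAAA, to CACCTG (the E-box that Zeb and Snail factors bind), to TGANTCA (AP-1) and to CAGACA (a SMAD-binding element).
Tgfbi: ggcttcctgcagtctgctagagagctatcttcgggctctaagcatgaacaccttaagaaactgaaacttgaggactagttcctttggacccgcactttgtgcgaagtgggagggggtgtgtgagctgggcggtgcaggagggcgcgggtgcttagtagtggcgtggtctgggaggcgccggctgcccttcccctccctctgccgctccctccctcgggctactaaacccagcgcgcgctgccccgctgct
Col3a1: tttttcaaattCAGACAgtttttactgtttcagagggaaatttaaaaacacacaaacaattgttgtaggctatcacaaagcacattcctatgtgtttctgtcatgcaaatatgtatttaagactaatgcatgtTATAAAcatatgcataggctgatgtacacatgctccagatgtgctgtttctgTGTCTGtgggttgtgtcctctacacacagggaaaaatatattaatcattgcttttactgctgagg

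The Tgfbi window has a G+C content of 62.4% and holds no match to the 4 motifs. The Col3a1 window has 35.2% and holds TATAAA from -117 to -112 and CAGACA from -239 to -234 and, on the other strand, from -65 to -60. Over the 27 windows of the 20 member genes, CAGACA was found in 10 and TATAAA in 8, while 17.1% and 12.4% of all 32851 windows hold them. CACCTG was found in 1 window, of Dpt (17.2% of all windows), and TGANTCA in 2, of Col6a1 and Zeb2 (6.75%). A match of these letters describes the window and is not a binding site.

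Thrombospondin-1 (Thbs1), a secreted glycoprotein that restrains vessel growth and can activate latent TGF-beta, was the other member called. Its level was 6.88, 7.22 and 7.15 (forestomach controls 214, 216 and 217) against 9.62, 8.86 and 8.10 (masses 412, 426 and 510). All masses were above all controls and also above the 7 esophagus arrays, which lay between 6.54 and 7.67. Thbs1 rose by 1.78 (SE 0.38, 3.43-fold, limma adjusted p = 0.0136). The controls averaged 7.08 ± 0.18 and the masses 8.86 ± 0.76 (SD, n = 3 each). Leaving out forestomach control 214 ended the call (adjusted p = 0.0581). Its paralog Thbs2 differed by 1.13 (SE 0.61, adjusted p = 0.284), at 5.85, 5.84 and 5.72 in the controls against 7.20, 7.30 and 6.31 in the masses, again without overlap.

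Among the other matricellular proteins the differences were larger and less even. Sparc, which binds collagen and is made by remodelling tissue, was 8.40, 6.25 and 6.34 (controls 214, 216 and 217) against 10.34, 10.40 and 8.81 (masses 412, 426 and 510). Control 214 stood well above the other controls, yet below every mass, and the difference of 2.85 (SE 1.002, adjusted p = 0.0959) was the largest of the 35. Fibronectin (Fn1) was 6.72, 5.54 and 5.59 in the controls against 9.38, 9.42 and 6.58 in the masses, a difference of 2.51 (SE 1.62, adjusted p = 0.384). Mass 510 lay below control 214 in Fn1 and in periostin (Postn), which was 7.54, 4.48 and 4.62 in the controls against 8.74, 9.30 and 5.44 in the masses (2.28, SE 1.82, adjusted p = 0.494). Tenascin-C (Tnc), a glycoprotein of wound beds, differed by 1.88 (SE 0.81, adjusted p = 0.175), and mass 510 at 6.26 lay below control 214 at 6.96.

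The 5 fibrillar collagen genes were all without overlap between masses and controls, and none passed the test. Col1a1, a chain of type I collagen, was 7.89, 7.35 and 7.17 (controls 214, 216 and 217) against 10.44, 9.36 and 8.62 (masses 412, 426 and 510), a difference of 2.01 (SE 1.01, adjusted p = 0.249). Col1a2, its partner chain, was 8.09, 7.23 and 7.03 in the controls against 10.01, 9.68 and 8.29 in the masses (1.87, SE 1.26, adjusted p = 0.405). Col3a1 of type III collagen was 7.27, 6.60 and 6.43 in the controls against 8.93, 8.78 and 7.79 in the masses (1.74, SE 1.21, adjusted p = 0.423). In each of these 3 genes mass 510 stood closest to the controls. Col5a1 and Col5a2, whose type V chains set fibril diameter, differed by 0.50 and 0.94 (SE 0.22 and 0.48), with adjusted p of 0.183 and 0.249.

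Collagen VI chains, which form beaded filaments around cells, differed by 0.94 (Col6a1), 0.52 (Col6a2) and 1.09 (Col6a3), and Col6a2 alone of these overlapped between the groups. Col12a1, whose product coats fibrils, was 8.33, 7.71 and 8.13 (controls 214, 216 and 217) against 9.48, 7.89 and 7.97 (masses 412, 426 and 510). Only mass 412 lay outside the controls. The lysyl oxidase genes Lox and Loxl1, which crosslink collagen and elastin, differed by 0.58 each (adjusted p = 0.395 and 0.322).

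Genes of small proteoglycans and microfibrils divided the masses differently. Lumican (Lum), which spaces collagen fibrils, was 5.64, 3.76 and 4.31 (controls 214, 216 and 217) against 5.54, 7.55 and 4.56 (masses 412, 426 and 510). Dermatopontin (Dpt) was 5.11, 8.78 and 4.80 in masses 412, 426 and 510, and osteoglycin (Ogn) was 4.15, 7.81 and 3.65. Both stood high in mass 426 alone, the mass with the highest smooth muscle level. Decorin (Dcn), at 9.62, 8.9996 and 8.46 in the controls, was 9.64, 11.37 and 7.53 in the masses, so mass 510 was below every control and the difference was 0.49 (SE 1.21, adjusted p = 0.860). In contrast, Fbln1, Fbln2 and Mfap4 did not overlap between the groups, with differences of 1.11, 0.89 and 0.67 (SE 0.22 for Mfap4, adjusted p = 0.0749).

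Receptors and markers of activated fibroblasts had wide errors. The PDGF receptor genes Pdgfra and Pdgfrb, which receive growth signals in fibroblasts and pericytes, differed by 1.96 and 0.98 (SE 1.18 and 0.63), with adjusted p of 0.343 and 0.379. Alpha smooth muscle actin (Acta2), made by both myofibroblasts and smooth muscle, was 10.25, 6.73 and 6.60 (controls 214, 216 and 217) against 10.64, 12.60 and 8.68 (masses 412, 426 and 510). Control 214 and mass 426, its highest arrays in these groups, were also the highest in the smooth muscle list, and the part of smooth muscle in the difference of 2.78 (SE 1.73, adjusted p = 0.362) was not tested.

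Transition genes did not move as one. Vimentin (Vim), the filament protein of mesenchymal and immune cells, was 9.11, 6.61 and 7.32 (controls 214, 216 and 217) against 10.49, 10.75 and 9.20 (masses 412, 426 and 510) (2.47, SE 1.05, adjusted p = 0.167). The repressor genes Zeb1 and Zeb2 differed by 1.21 and 0.98 (SE 0.88 and 0.76; adjusted p = 0.444 and 0.477), and cadherin-11 (Cdh11) by 0.997 (SE 0.41, adjusted p = 0.1498). Twist1 lay between 5.90 and 6.25 in the controls and 6.14 and 6.45 in the masses (0.14, SE 0.16). Snai2, which encodes Slug, was 6.80, 7.10 and 7.33 in the controls against 7.43, 6.999 and 6.96 in the masses, a difference of 0.05 (SE 0.21, adjusted p = 0.914) with overlapping groups.

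**Figure D3:**
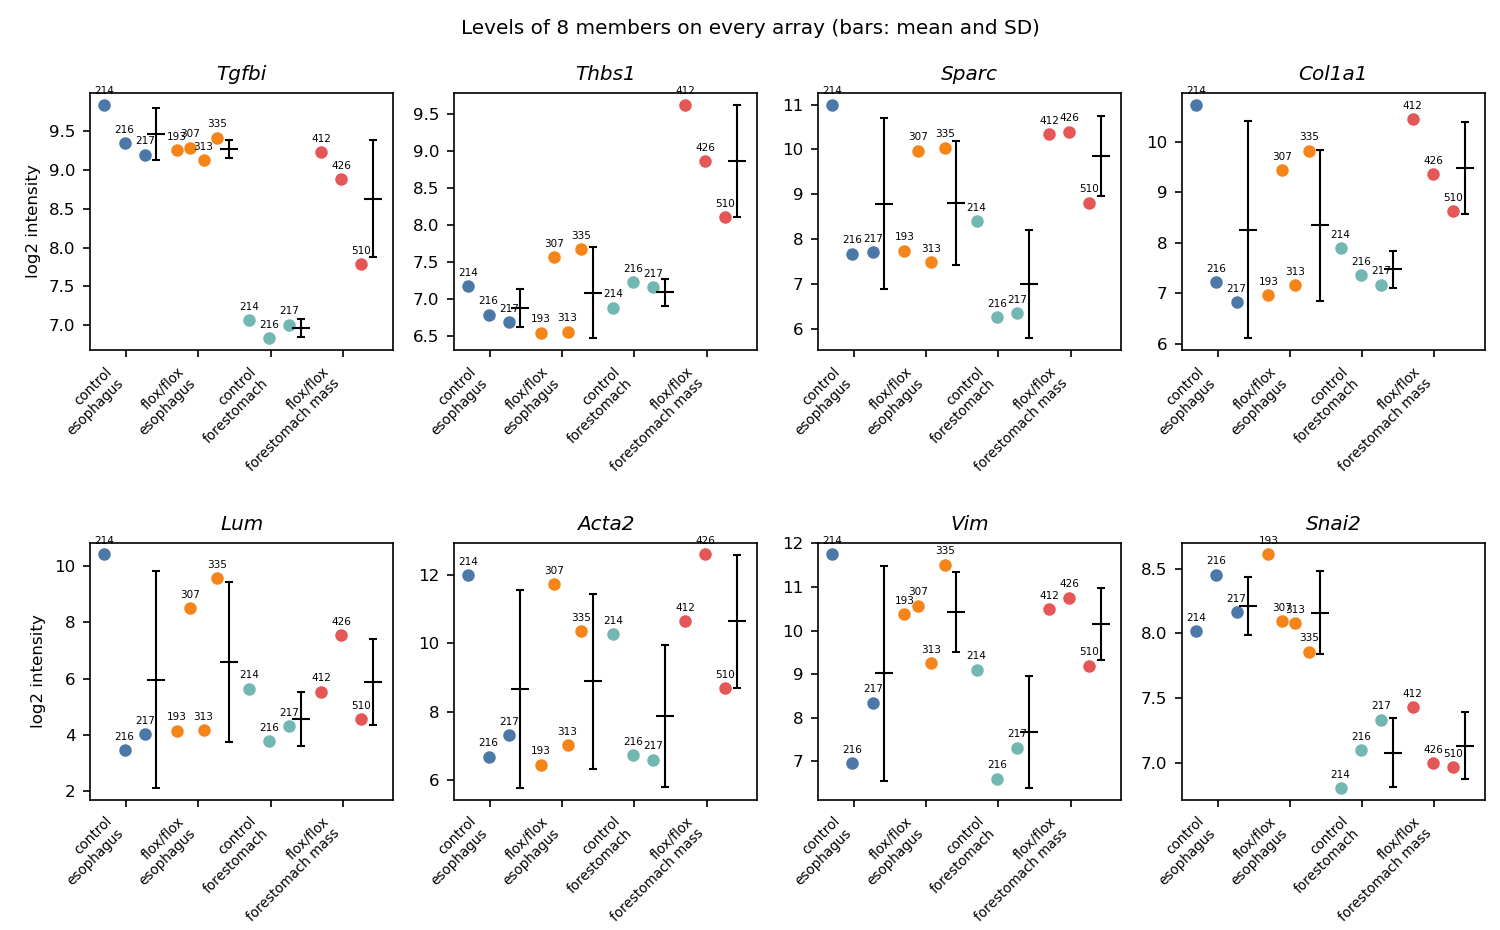
Log2 intensity (vertical axis, scaled separately for each gene) of 8 members on each array by group (horizontal axis), with animal numbers; black bars give the group mean and SD. Thbs1 is highest in the 3 masses, Tgfbi is lowest in the 3 control forestomach arrays, and Snai2 lies lower in all 6 forestomach than in all 7 esophagus arrays.

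To ask which rises stood beyond the stroma index, the index of each array was added to the fit as a covariate. The median change of the members in the masses was then 0.07, with 20 of 35 above 0, beside a median of 0.02 over all genes. The members' median moved with the genes of the index. It was -0.35 with the endothelial list alone, 0.49 with the other fibroblast list alone, 0.27 with smooth muscle genes and 1.08 with skeletal muscle genes. Between masses and control forestomach, endothelial genes differed by 1.16, other fibroblast genes by 0.64 and smooth muscle genes by 1.62. Skeletal muscle genes differed by 0.04 between masses and control forestomach, so as an index they hardly shift the changes there. With the stroma index, Tgfbi was still higher by 1.39 (SE 0.27, limma adjusted p = 0.0156) and Thbs1 by 1.35 (SE 0.31, adjusted p = 0.0275). These 2 were the members called higher, where 1.40% of all genes tested were. Lum was the 1 member called lower with the index (-1.66, SE 0.39, adjusted p = 0.0290), where 5.39% of all genes were. Without the index it was higher in the masses by 1.31 (SE 1.86, limma adjusted p = 0.729). Masses 412 and 426, with an index of 6.98 and 7.19, stood at 5.54 and 7.55. Esophagus flox/flox 307, whose index was 6.94, was higher at 8.50. Lum passed the filter only with flox/flox arrays counted. The other members above 1 were Sparc (1.32, SE 0.39, adjusted p = 0.0681) and Vim (1.06, SE 0.67, adjusted p = 0.386).

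Several collagen and receptor genes were near 0 with the index in the fit. Col1a2 stood at -0.16 (SE 0.22), Col3a1 at -0.20 (SE 0.22), Col6a3 at -0.08 (SE 0.10), Fn1 at -0.10 (SE 0.29), Pdgfra at 0.08 (SE 0.27) and Pdgfrb at -0.02 (SE 0.16). Col1a1 stood at 0.42 (SE 0.30, adjusted p = 0.445). The slope, the log2 change of a gene per unit of the index, was 2.26 for Col1a2, 3.30 for Lum and 2.90 for Fn1, but 0.48 for Thbs1 and 0.30 for Tgfbi. The slopes rest on the spread within groups, which is widest in the esophagus, and 1 slope is assumed for all 4 groups. Without the 3 stroma-rich esophagus arrays 0 members were called (limma; 0.0441% of all genes were), and the changes were 0.49 for Tgfbi (adjusted p = 0.538) and 1.003 for Thbs1 (0.379).

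The covariate calls also moved with the genes that made up the index and with single arrays. With the endothelial list alone as the index, Tgfbi was the 1 member called and Thbs1 missed the threshold (adjusted p = 0.0819), where 0.598% of all genes were called higher. With the other fibroblast genes alone, Sparc (adjusted p = 0.0266), Thbs1, Mfap4 and Tgfbi were called higher, where 2.25% of all genes were, and Lum was at -0.47 (0.495). Tgfbi was lost without forestomach controls 214 and 216 (0.0613 and 0.0515). Thbs1 was lost without forestomach controls 214, 216 and 217 (0.121, 0.0584 and 0.0635) and esophagus controls 214, 216 and 217 (0.0798, 0.0502 and 0.0514). Lum was lost with array weights (0.0692) and without esophagus control 214 (0.0795), forestomach controls 214 and 217 (0.122 and 0.0858) and mass 412 (0.0530).

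**Figure D4:**
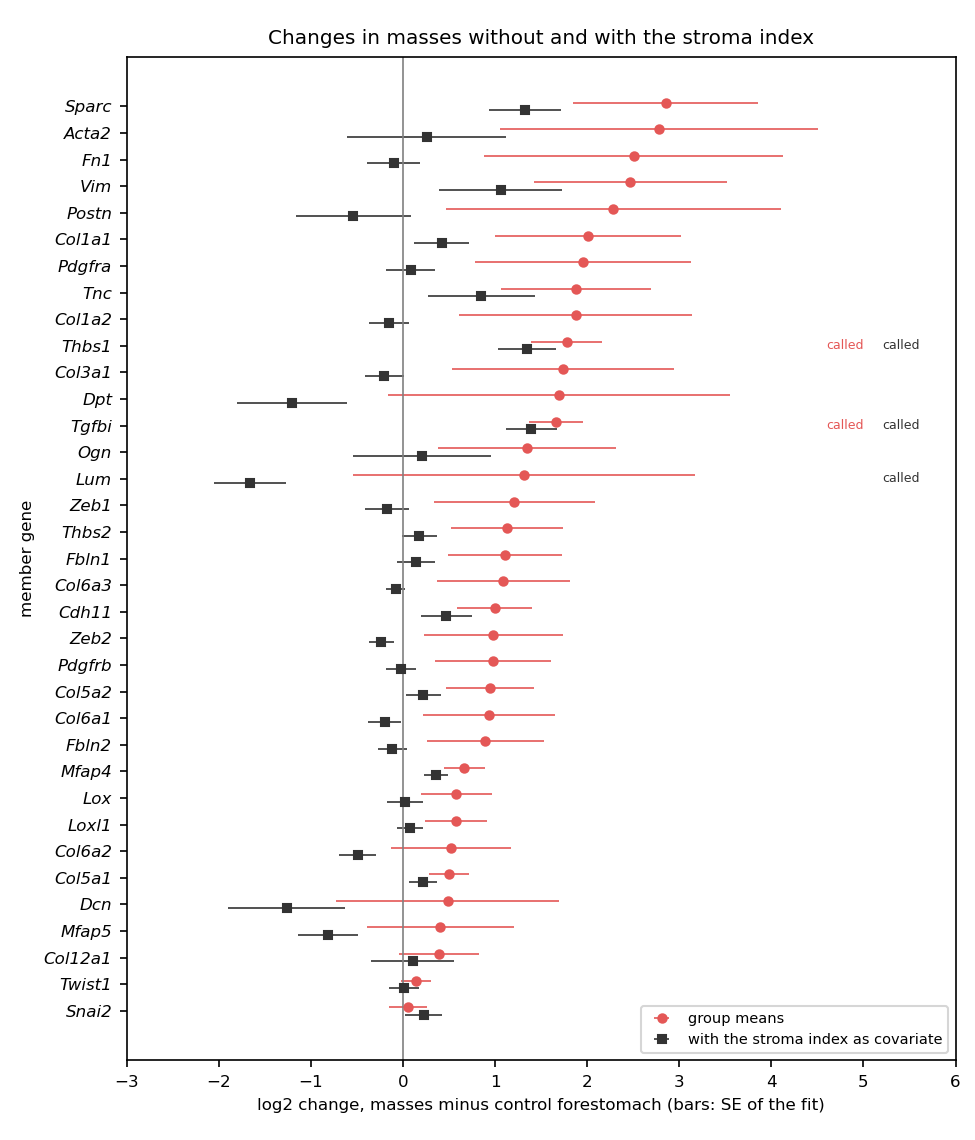
Log2 change of each tested member in masses minus control forestomach (horizontal axis; bars are the SE of the fit), from group means (red circles) and with the stroma index as a covariate (black squares); the word called marks an adjusted p under 0.05 in the fit of that color. All 35 red circles lie above 0, the squares center near 0, and Tgfbi and Thbs1 are called in both fits.

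Subtracting the index from every gene on each array, so that a value asks whether a gene moved by more or less than the index, gave a median of 0.21 for the members in the masses, with 24 of 35 above 0. Over all genes the median was -0.89 and 3.65% were above 0. The index itself was 0.90 higher in the masses, so the subtraction alone lowers every gene there by that amount. The shares over all genes in this fit are largely set by that shift. A larger share among the members than among all genes is therefore not a result about the members. No member passed the test (limma), where 1.17% of all genes were called. At an unadjusted p under 0.05 there were 5 members, all higher (0.529% of all genes were higher at that p): Sparc (1.95), Acta2 (1.88), Fn1 (1.61), Vim (1.57) and Postn (1.38). The adjusted p was 0.171 to 0.359 for these 5. The SE was 0.68 for every member, since limma estimated infinite prior degrees of freedom here and gave all genes 1 shared spread. Tgfbi was 0.76 and Thbs1 0.88 above the index (adjusted p = 0.366 and 0.359). All 3 masses lay above all 3 controls in 6 members, Col1a1, Col3a1, Col6a3, Sparc, Thbs1 and Tgfbi (0.649% of all genes), and below them in 2, Col6a2 and Snai2 (60.5% of all genes). Relative to the index, Sparc was 2.21, 0.40 and 0.53 (controls 214, 216 and 217) against 3.36, 3.21 and 2.42 (masses 412, 426 and 510).

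**Figure D5:**
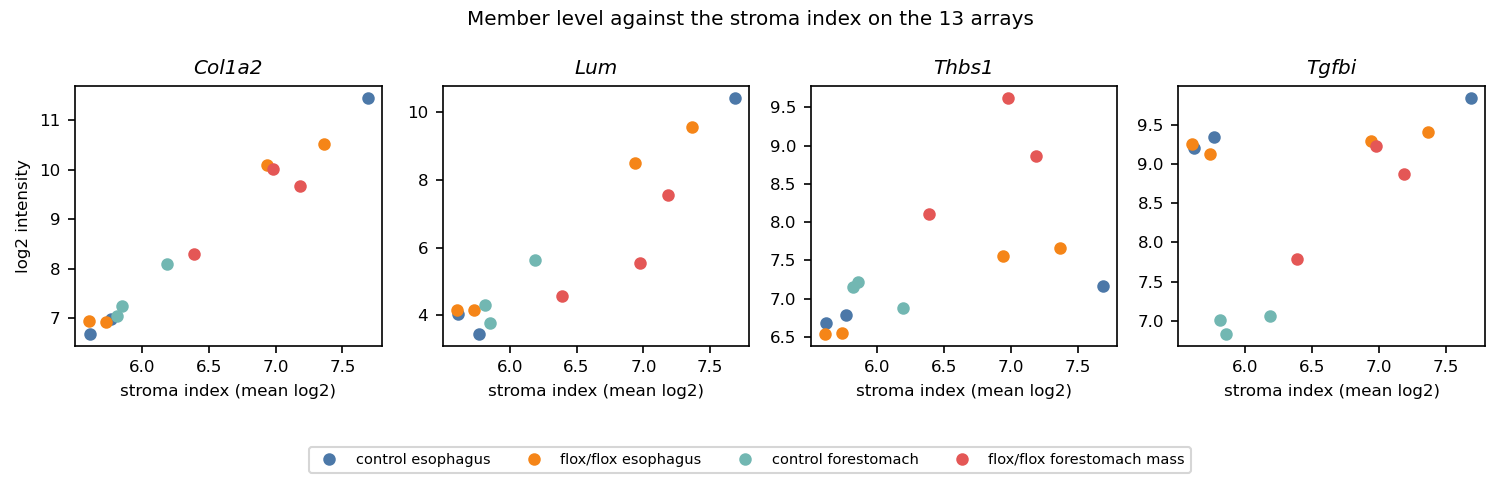
Log2 intensity of 4 members (vertical axis) against the stroma index (mean log2 of 28 genes outside the members, horizontal axis) on the 13 arrays, colored by group. Col1a2 climbs with the index over all groups and Lum lies lower in masses 412 and 426 than in esophagus flox/flox 307, which has a like index, whereas Thbs1 lies higher in the masses and Tgfbi is between 9.12 and 9.84 in the esophagus at every index.

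In the esophagus no member passed the test between flox/flox and control (limma), where 0.0126% of all genes were called, and 0 had an unadjusted p under 0.05, against 6.98% of all genes. Changes ran from -0.68 to 1.41, with a median of 0.09, and 19 of 35 were above 0. No member was without overlap between the genotypes, against 10.3% of all genes. The largest was Vim, at 8.35, 6.96 and 11.74 for controls 217, 216 and 214, against 10.37, 10.56, 9.25 and 11.51 for flox/flox 193, 307, 313 and 335 (1.41, SE 0.98, adjusted p = 0.888). Animals 193 and 313, whose stroma index was low, stood above both low-index controls in Vim. The macrophage list was also higher in these 2, at 6.59 and 5.87 against 5.58 in each of controls 216 and 217, and its part in the Vim values was not tested. Dcn was the lowest (-0.68, SE 1.13, adjusted p = 0.997), and flox/flox 313 at 7.68 was the lowest of all 13 arrays but mass 510.

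The same 3 esophagus arrays stood apart in many members. Fn1 read 10.79 (control 214), 9.35 (flox/flox 307) and 9.92 (flox/flox 335), while the other 4 arrays lay between 5.08 and 5.39. Postn was 10.49, 8.73 and 8.69 on the same 3 arrays and between 4.003 and 4.92 on the others. The median of the members in the esophagus was 0.88 without control 214, -0.45 without control 217, -0.31 without control 216 and -0.27 without flox/flox 335. With the index as a covariate no member was called (0.0189% of all genes were), and 1 had an unadjusted p under 0.05, Vim (1.32, SE 0.57, adjusted p = 0.616), against 7.81% of all genes. Relative to the index no member was called either (0.0315% of all genes), and Vim alone had an unadjusted p under 0.05 (0.580% of all genes).

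The change in the masses was larger than that in the esophagus for all 35 members, by a median of 1.06, and for 48.5% of all genes. The test of this difference called none of the members (limma), where 0.139% of all genes were called. At an unadjusted p under 0.05 there were 2, Tgfbi and Thbs1, against 10.5% of all genes. The difference was 1.85 for Tgfbi (SE 0.40, adjusted p = 0.0890) and 1.58 for Thbs1 (SE 0.52, adjusted p = 0.294). With the animal as a replicate block, which pairs the tissues of each control mouse, Tgfbi passed (adjusted p = 0.0358), where 0.913% of all genes did. It also passed with array weights (0.0375), with sex as a covariate (0.0464) and without mass 510 (0.00192), where 0.378%, 0.290% and 2.34% of all genes did. In the other 20 of 24 alternatives Tgfbi did not pass. Its limma adjusted p was 0.404 without the 3 stroma-rich esophagus arrays, 0.204 without forestomach control 214 and 0.198 without esophagus control 214.

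Between the control tissues, 2 members were called, both lower in forestomach, where 3.16% of all genes were called lower. Beside Tgfbi this was Snai2, a factor of basal squamous cells, which fell by 1.13 from esophagus to forestomach (SE 0.21, 2.19-fold, limma adjusted p = 0.00682). It was 8.02, 8.45 and 8.17 in the esophagus of animals 214, 216 and 217 and 6.80, 7.10 and 7.33 in their forestomach. Flox/flox esophagus lay at 7.86 to 8.61 and the masses at 6.96 to 7.43, so all 7 esophagus arrays were above all 6 forestomach arrays. Of the other members, Col12a1 had an unadjusted p under 0.05 and was higher in forestomach, by 1.18 (SE 0.44, limma adjusted p = 0.140). With the animal as a replicate block it was called beside Tgfbi and Snai2, where 16.8% of all genes were called either way, and likewise with array weights (23.9%) and without mass 412 (9.77%).

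Genes outside the 38 that act with them were counted from lists written with earlier results of these data known. Of 24 TGF-beta pathway genes tested, 20 had a log2 change above 0 in the masses (median 0.40), as counted for the lists that follow too. The shares of all genes tested that were called higher and lower, 2.31% and 8.40%, stand behind every list. In this list 3 were called higher and 0 lower. The 3 were Skil, a brake on SMAD transcription (0.67, SE 0.13, adjusted p = 0.00754), the inhibitory Smad7 (0.75, SE 0.18, adjusted p = 0.0196) and Ccn2, a matricellular growth factor (0.97, SE 0.25, adjusted p = 0.0318). Skil was 8.35 ± 0.16 in controls and 9.02 ± 0.21 in masses (SD, n = 3 each). It was also called with the index as a covariate (0.69, adjusted p = 0.0197), while Smad7 (0.0562) and Ccn2 (0.0856) were not.

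Of 17 collagen synthesis and processing genes, 15 were above 0 in the masses (median 0.27) and 1 was called, the prolyl hydroxylase gene P4ha2 (0.63, SE 0.17, adjusted p = 0.0359). Of 16 matrix receptors, 14 were above 0 (median 0.27). The collagen-binding integrin Itga2 was called higher (0.81, SE 0.21, adjusted p = 0.0325) and syndecan-1 (Sdc1), a heparan sulfate proteoglycan of epithelial cells, was called lower (fell by 0.37, SE 0.096, adjusted p = 0.0292). Of 17 other transition genes, 10 were above 0 (median 0.06). The epithelial adhesion gene Epcam (0.66, SE 0.17, adjusted p = 0.0268) and the gelatinase Mmp9 (0.76, SE 0.21, adjusted p = 0.0381) were called higher, and the epithelial splicing factor Esrp1 was called lower (fell by 0.34, SE 0.090, adjusted p = 0.0343).

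Within the 2 lists of the index, Col15a1 (1.01, SE 0.29, adjusted p = 0.0431), a basement membrane collagen gene, and Plvap (1.497, SE 0.39, adjusted p = 0.0305), a gene of fenestrated vessels, were called higher. Among squamous keratinocyte genes, desmoglein-3 (Dsg3) was called higher (1.37, SE 0.21, adjusted p = 0.00258) and the suprabasal keratin Krt4 lower (fell by 0.56, SE 0.13, adjusted p = 0.0178). Of these 13 genes, Dsg3 and Skil kept the call when each of the 13 arrays was left out in turn. The other genes each lost it without 3 to 8 different single arrays, among them at least 1 of forestomach controls 214, 216 and 217. With array weights 8 of the 13 lost the call (Ccn2, Col15a1, Esrp1, Mmp9, P4ha2, Plvap, Sdc1 and Smad7), with sex as a covariate 5 (Ccn2, Col15a1, Esrp1, Itga2 and P4ha2), with median centring 2 (Col15a1 and P4ha2) and with the replicate block 1 (P4ha2, adjusted p = 0.0582). In a fit of forestomach arrays alone 9 lost it, Skil among them (0.0659).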

How the data were processed

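RNA of 13 dispase-freed epithelial samples was hybridised to 13 one-color arrays, 1 per sample. The deposited values are linear probe set intensities that the authors obtained with GCRMA, which corrects background and normalizes between arrays, per the submitters' processing notes; its version is not given in the sources used here. Of 34729 probe sets, 21633 are annotated to 1 gene, 1306 to several and 11790 to none. The probe set with the highest mean stood for each of 19934 genes. The array medians ran from 65.3 to 72.4, and precision is limited by how few arrays each group has. A floor of 1 was set before log2 and touched 0 values.

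Genes with a log2 level above 5 on at least 3 arrays were tested (15875; 4059 were not) with limma 3.58.1 in R 4.3.3, as 1 fit of 4 group means with 9 residual degrees of freedom (8 with the index), and adjusted by Benjamini-Hochberg over all genes tested. Called means an adjusted p under 0.05. The group fit and the fit with a covariate were tried on simulated data, for the masses comparison alone. The noise there was independent between genes and the covariate was unrelated to the groups. That simulation does not cover an index that differs between groups, as the stroma index does here. The members, the lists and the tests were chosen with earlier results of these data known. For called members, values are given on every array of the groups in which they were called, and for some others where they show how the arrays divide. On the remaining arrays they are partly given as ranges or left out. Up to 3 called genes with the smallest adjusted p are named from each list outside the members. The lists were other fibroblast, endothelial, smooth muscle, skeletal muscle, macrophage, squamous keratinocyte, TGF-beta pathway, collagen synthesis and processing, matrix receptors and other transition genes.

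The 3 control animals gave both tissues. Deviations from the group mean correlated between the tissues of 1 animal at 0.401 (214), 0.398 (216) and 0.315 (217), and between tissues of different animals at -0.425 to 0.129, so animal was tried as a replicate block. Other alternatives were the filter, log2 of intensity plus 16, the mean of probe sets, quantile normalization, median centring, array weights, each array left out, the arrays of 1 tissue alone and other gene lists as the index. After the data were seen, a covariate for sex, as read from Xist, and 2 fits without arrays that stood apart were added.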

Additional observations from a re-analysis of the deposited data

How the results depend on the processing

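No member was called between flox/flox and control esophagus under any alternative run for that comparison, and Tgfbi and Snai2 kept the call between control tissues in all of theirs. With array weights, 1 member differed between tissues, and 17 and 2 members were called relative to the index in masses and esophagus, where 93.0% and 0.649% of all genes were. In the same setting Snai2 in the masses was -0.0801. With the replicate block 1 member, Tgfbi, differed between tissues, and with sex as a covariate also 1. Leaving out 1 array at a time gave 1 to 4 members called in the masses, 1 to 6 with the index as a covariate, 0 to 2 relative to the index and 0 to 1 for the difference between tissues. The share of all genes called either way moved too. In the masses it was 10% without esophagus control 214 (4 members) and 4.74% without forestomach control 214 (1 member). With the covariate it was 1.61% without forestomach control 214 (1 member). Relative to the index it was 5.18% without esophagus control 214 (2 members). For the difference it was 2.34% without mass 510 (1 member). The counts in these leave-out fits thus do not describe the members alone. Over the same fits the change in the masses ran from -0.10 to 0.18 for Snai2, from -0.12 to 0.67 for Col12a1 and from -0.44 to 1.48 for Dcn, and that of Dcn in the esophagus from -1.34 to 0.27. With the index as a covariate, 1 member was called with endothelial genes as the index and 8 with skeletal muscle genes (3.25% and 11.5% of all genes). Skeletal muscle genes differed by 0.04 between masses and control forestomach and hardly shift the changes there. With them as the index Lum turned to 1.24. Without the 3 stroma-rich esophagus arrays, 18 members were called in the masses, 0 with the index as a covariate and 14 relative to it, where 8.91%, 0.0441% and 81.7% of all genes were called. Without forestomach control 214 and mass 426, Thbs1 was no longer called in the masses (limma adjusted p = 0.0861), and Dcn was -0.14 and Snai2 -0.0192 there. For the alternatives that keep all arrays the cause of these changes was not tested; the others rest on fewer arrays.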
